A study of Rattus norvegicus with 21 samples.

Results

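Carbonic anhydrases hydrate carbon dioxide to bicarbonate and a proton. The family holds cytosolic, mitochondrial and membrane-bound enzymes, as well as related proteins that lack the activity. The isozymes are found in several cell types, not all of which are listed here. The fast cytosolic enzyme Car2 serves bicarbonate secretion in bile duct cells and is also found in red blood cells. The slow cytosolic enzyme Car3 is an abundant protein of male rat hepatocytes, of skeletal muscle and of fat cells. The mitochondrial enzyme Car5a supplies bicarbonate to carbamoyl phosphate synthetase and pyruvate carboxylase in hepatocytes. Car8 is a catalytically inactive relative that binds an inositol trisphosphate receptor, and Car14 is a membrane-bound isozyme.

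The 5 genes Car2, Car3, Car5a, Car8 and Car14 were taken by their gene symbols from 13337 genes named on the array. They were chosen by their measured levels, as isozymes that moved in opposite directions in livers exposed to diethylnitrosamine (DEN), so their differences between DEN and control livers are given as a description without a test. Of the 5 genes 4 had a named probe. Car14 had none and has no value here. Car8 had 2 probes, which made 5 probes in all, and 4 of them, 1 per measured gene, passed the filter on dim probes. The second Car8 probe lay near background in every group, with group means of 5.87 to 6.28 on the log2 scale.

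RNA of non-tumour liver from male Wistar rats was hybridised to bead arrays made by Illumina, 1 array per sample and 3 in each of 7 groups. DEN, a liver carcinogen that cytochrome P450 enzymes activate in hepatocytes, was injected into the abdomen each week at 50 mg/kg (DEN 50) or 100 mg/kg (DEN 100), and controls received phosphate-buffered saline (PBS). At the time labelled week 12 the groups were PBS, DEN 50 and DEN 100. At the time labelled week 18 they were PBS without further treatment and 3 groups of DEN 50 rats that had also been injected 5 times a week, from week 13 to week 18, with vehicle, with erlotinib at 0.5 mg/kg (erlotinib 0.5) or with erlotinib at 2 mg/kg (erlotinib 2). Erlotinib blocks the kinase activity of EGFR, the receptor of epidermal growth factor. The labels call every DEN liver cirrhotic, state a washout of 1 week before killing, and give killing at 9, 13 and 19 weeks, so the names week 12 and week 18 are those of the labels. The erlotinib doses came from separate studies whose vehicle rats were pooled, so dose and study cannot be told apart.

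Rat numbers differ between all samples, but nothing else in the labels says that the samples were separate animals, and a p-value here reflects the spread among these samples only. Levels below are normalized intensities on the log2 scale, where 1 unit is a doubling, and a level at or under 6.38, the median of all values, is called near background. Tested differences are log2 differences ± SE with 3 arrays per group. Adjusted p-values are Benjamini-Hochberg values of limma's moderated test over 19339 features, and "called" means an adjusted p under 0.05. Whether the arrays of groups overlap is given as a description only, since the share of all features without overlap was not counted. A level of one probe says nothing about the level of another probe, since bead probes differ in brightness. The first principal component held 50.7% of the variance and ran from PBS to DEN 100. Vehicle array 24 stood apart from the other vehicle arrays on the third component, at 34.5 against -1.1 and -0.3, and results that turn on it are given without it. The hepatocyte marker Alb had group means of 14.74 to 15.08, and Krt19, Hbb, Acta1 and Adipoq are given beside the results that they touch.

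Car2 was low in both PBS groups and high in every DEN group. In PBS livers its levels were 8.09, 7.97 and 9.56 at week 12 and 8.46, 8.24 and 8.84 at week 18. In DEN 50 livers they were 12.30, 13.06 and 13.14 at week 12, and in DEN 100 livers 13.50, 13.67 and 13.79. No DEN array came near a PBS array, and the 3 DEN 100 arrays all lay above the 3 DEN 50 arrays of the same week. At week 18 the vehicle livers had 12.57, 13.58 and 13.35 and the erlotinib 0.5 livers 12.55, 12.70 and 13.00. The erlotinib 2 livers had 12.26, 12.02 and 11.89, which put all 3 below every other DEN array.

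As group means ± SD, Car2 stood at 8.54 ± 0.89 in PBS and 12.83 ± 0.46 in DEN 50 at week 12, a difference of 4.30 or 19.6-fold. DEN 100 had 13.65 ± 0.14, which was 5.11 or 34.6-fold above PBS and 0.82 above DEN 50. At week 18 the vehicle group had 13.17 ± 0.53 against 8.51 ± 0.31 in PBS, a difference of 4.66 or 25.2-fold. These differences chose the gene and were not tested. Across all features, 10.9% were called between DEN 50 and PBS at week 12, 21.3% between DEN 100 and PBS, 18.2% between DEN 50 vehicle and PBS at week 18, and 9.38% between the DEN doses. In order of level the groups ran DEN 100, vehicle, DEN 50 at week 12, erlotinib 0.5, erlotinib 2 and the PBS groups. Neighbours in this order overlapped apart from 2 gaps, one between erlotinib 0.5 and erlotinib 2 and one between erlotinib 2 and PBS.

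Car3 ran the other way and over a wider range. In PBS livers its levels were 15.03, 15.27 and 15.09 at week 12 and 15.03, 15.23 and 15.26 at week 18. In DEN 50 livers at week 12 they were 13.30, 12.59 and 12.10, and in DEN 100 livers 7.90, 6.42 and 7.39. The PBS groups, DEN 50 and DEN 100 did not overlap. In PBS livers the probe sat at the 99.9th percentile of its array, close to the highest log2 value on any array, 15.48, while 1 of 3 DEN 100 arrays was next to the background level. At week 18 the vehicle livers were spread over 12.85, 11.54 and 10.40. The erlotinib 0.5 livers had 12.58, 13.82 and 13.50 and the erlotinib 2 livers 15.07, 15.12 and 14.02, of which the first and second lay within the PBS range.

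Car3 had a mean of 15.13 ± 0.12 (SD) in PBS and 12.67 ± 0.60 in DEN 50 at week 12, so that PBS was 5.52-fold higher. The DEN 100 mean was 7.23 ± 0.75, a difference of -7.90 from PBS and of -5.43 from DEN 50. PBS was thus 238-fold above DEN 100, a value that spans nearly the whole scale of the arrays and may be limited at both ends. At week 18 the vehicle mean was 11.60 ± 1.23 against 15.17 ± 0.12 in PBS, with PBS 11.9-fold higher. The mean was 13.30 ± 0.64 in erlotinib 0.5, 3.66-fold below PBS, and 14.74 ± 0.62 in erlotinib 2, 1.35-fold below PBS with overlapping arrays. In order of level the PBS groups and erlotinib 2 overlapped as neighbours, as did erlotinib 0.5, DEN 50 at week 12 and vehicle, and DEN 100 stood alone at the bottom. In whole liver, fewer cells of a type and less RNA per cell cannot be told apart, and this holds for every level here.

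**Figure D1:**
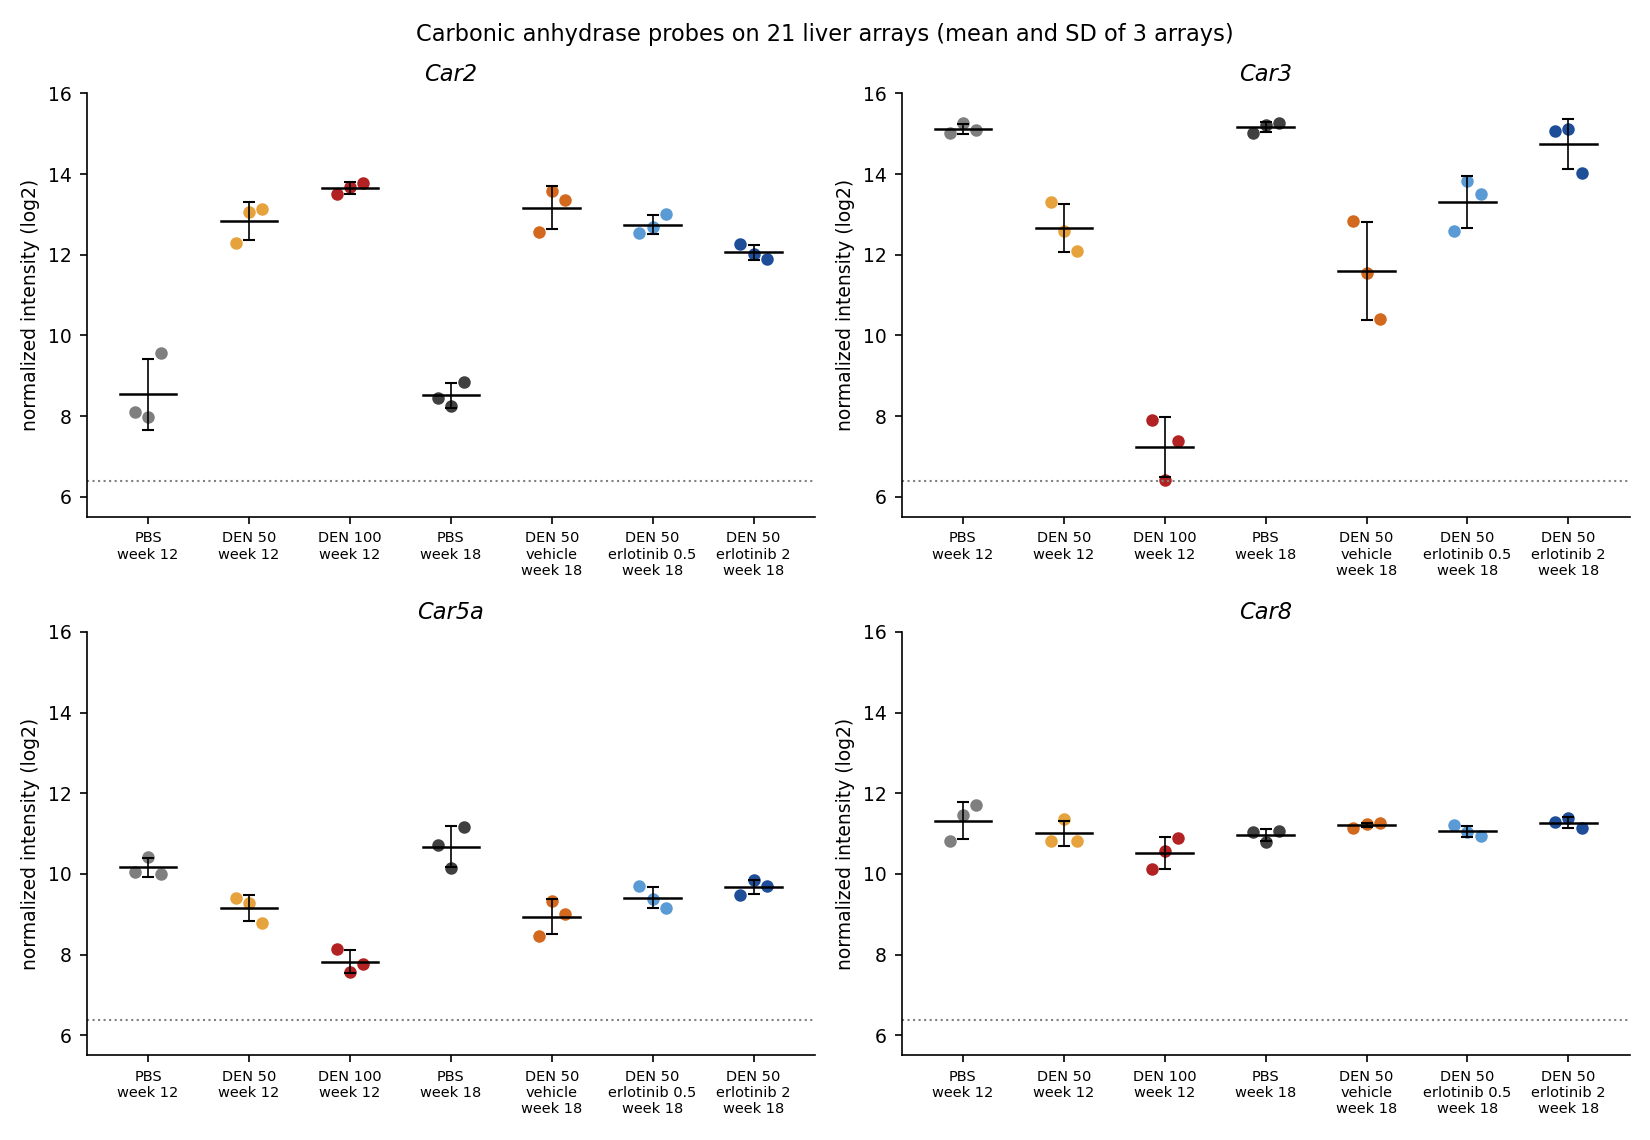
Normalized intensity on the log2 scale (vertical axis) of the Car2, Car3, Car5a and bright Car8 probes on each of 21 arrays, by group (horizontal axis). Points are arrays, long bars and error bars are means ± SD of 3 arrays, and the dotted line is the background level of 6.38. Car2 is between 7.97 and 9.56 in PBS and above 11 in all DEN arrays, while Car3 runs from 15.27 in PBS down to 6.42 in DEN 100.

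Car5a, the mitochondrial isozyme, was lower in DEN livers than in PBS livers, as Car3 was, but over a smaller range. Its levels in PBS livers were 10.06, 10.42 and 10.00 at week 12 and 10.72, 10.15 and 11.17 at week 18. DEN 50 livers had 9.40, 9.28 and 8.78 at week 12 and DEN 100 livers 8.15, 7.57 and 7.76, with no overlap between the 3 groups of that week. Vehicle livers had 8.47, 9.33 and 9.01 at week 18, erlotinib 0.5 livers 9.69, 9.38 and 9.16, and erlotinib 2 livers 9.48, 9.84 and 9.71. No DEN array of week 18 reached a PBS array. PBS was 2.01-fold above DEN 50 and 5.05-fold above DEN 100 at week 12, and 3.36-fold above vehicle at week 18. The difference of DEN 50 from PBS was -1.01, and -0.55 where arrays were scaled on their medians.

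Car8, the inactive relative, differed little between groups. On its bright probe the group means ran from 10.53 ± 0.40 (SD) in DEN 100 to 11.32 ± 0.46 in PBS at week 12, and every group overlapped its neighbours in the order of level. The lowest array was a DEN 100 array at 10.11 and the highest a PBS array of week 12 at 11.70. DEN 100 lay 0.79 below PBS and DEN 50 0.32 below PBS, both with overlapping arrays, and the sign of the second difference changed to 0.06 with median scaling. At week 18 the vehicle mean was 11.21 ± 0.05 against 10.97 ± 0.15 in PBS, without overlap. Of the 4 measured genes, then, Car2 was higher in DEN livers in all 3 comparisons with PBS, Car3 and Car5a were lower, and Car8 had the smallest differences.

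On the GRCr8 assembly of RefSeq, Car2, Car3, Car1 and Car13 follow each other as protein-coding genes on chromosome 2, so the pair with opposite levels are direct neighbours. Of the 5 genes the RefSeq promoter table held Car5a and Car14. The sequence of Car5a is shown because Car5a alone of these has a measured level. The 250 bases before its start, chr19:66911487-66911736 on the minus strand of GRCr8, read 5′ to 3′ with the matched motif in capitals:
Car5a: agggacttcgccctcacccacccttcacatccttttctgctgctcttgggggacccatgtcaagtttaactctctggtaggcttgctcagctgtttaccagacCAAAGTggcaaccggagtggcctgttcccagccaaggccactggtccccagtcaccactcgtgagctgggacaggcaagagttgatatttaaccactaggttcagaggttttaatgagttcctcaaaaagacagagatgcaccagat
The capitals mark CAAAGT, the core of binding sites of the hepatocyte factor HNF4A, on the sense strand from 147 bases before the start. Of 33469 rat promoter windows of this length 12.9% hold that motif on either strand. The other motifs searched on both strands had no match in this window. These were TATAAA, held by 12.9% of all windows, CCAAT by 34.0%, and GGGCGG by 30.5%. They also included the STAT5 motif TTCNNNGAA, held by 7.7%, the core of the antioxidant response element TGACNNNGC by 10.1%, and the AP-1 motif TGANTCA by 6.3%. A match of letters is a description and not a site.

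**Figure D2:**
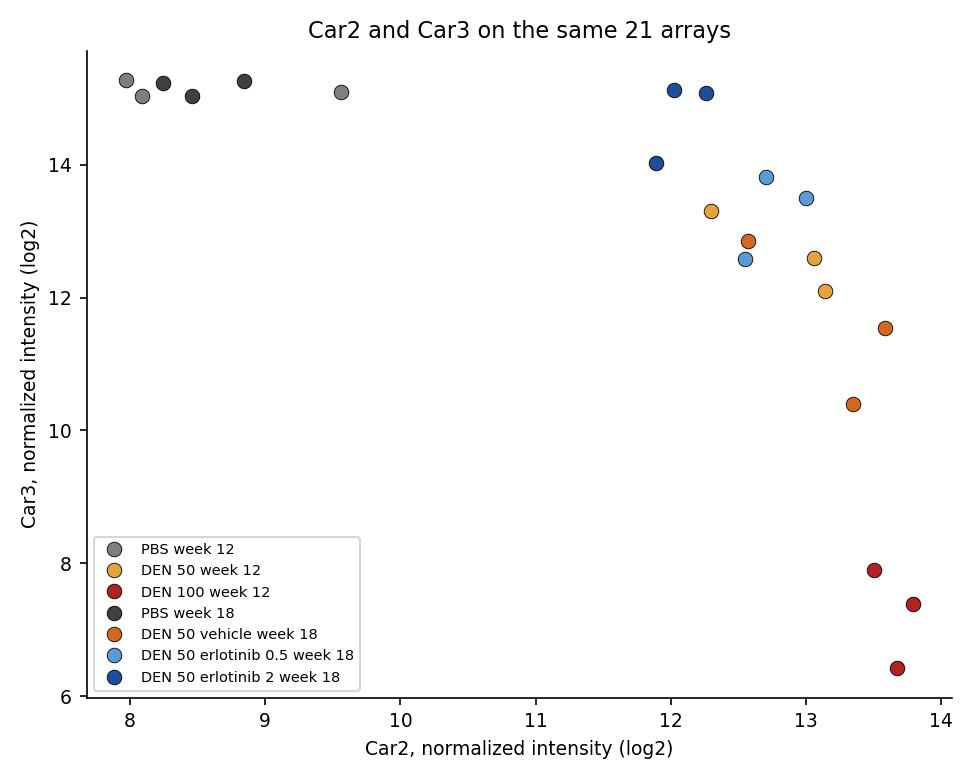
Car2 (horizontal axis) against Car3 (vertical axis), normalized intensities on the log2 scale, with 1 point per array coloured by group. The 6 PBS arrays lie at Car2 levels of 7.97 to 9.56 with Car3 above 15, and the DEN arrays lie at Car2 levels of 11.89 to 13.79 with Car3 from 15.12 down to 6.42.

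From PBS to DEN 50 at week 12 Car2 differed by 4.30 and Car3 by -2.46, whereas from DEN 50 to DEN 100 Car2 differed by only 0.82 and Car3 by -5.43. In erlotinib 2 livers Car3 lay 0.43 below PBS while Car2 lay 3.54 above PBS, 11.7-fold. Over all 21 arrays, which fall into separate PBS and DEN clusters, the correlation was -0.70 between Car2 and Car3, 0.88 between Car3 and Car5a and -0.81 between Car2 and Car5a. After the group means were taken off, these were -0.30, -0.05 and 0.02. All of them describe arrays that share their normalization.

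The comparison of erlotinib 2 with vehicle asked how the livers of DEN 50 rats differed after the higher dose. The genes were chosen for their direction in DEN livers and not by this comparison, though with earlier results of these data known. This comparison shares its vehicle arrays with that of vehicle with PBS, which the choice did use. A vehicle group that is extreme by chance would thus also enlarge this difference. Car3 was called, higher by 3.14 ± 0.46 in erlotinib 2 than in vehicle (95% confidence interval 2.18 to 4.10, adjusted p = 0.00038 in limma), or 8.82-fold. All 3 erlotinib 2 arrays lay above all 3 vehicle arrays. Car2 differed by -1.11 ± 0.32 (interval -1.77 to -0.45) with no overlap of the arrays and an adjusted p of 0.051 in limma, just over the threshold. Car5a differed by 0.74 ± 0.24 (interval 0.24 to 1.24, adjusted p = 0.093 in limma), also without overlap, and Car8 by 0.06 ± 0.20 (interval -0.36 to 0.48, adjusted p = 0.95). Thus 1 of 4 measured genes was called, where 4.03% of all features were.

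Car3 stayed called with each array left out and under every setting run, whereas Car2 and Car5a crossed the threshold. Leaving out each array in turn kept Car3 between 2.54 and 3.77, with adjusted p-values of 1.9e-05 to 0.0053 in limma, and over the other settings the adjusted p was at most 0.011. Without vehicle array 24 Car2 was called at -1.41 (adjusted p = 0.016 in limma), and over all arrays left out it ran from -1.41 to -0.91, with an adjusted p of up to 0.19. Over the settings the adjusted p of Car2 ran from 0.006 to 0.54. Car5a was called only without vehicle array 59, at 0.94 (adjusted p = 0.046 in limma), and under no other setting run (adjusted p of 0.067 to 0.52).

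At the lower dose none of the 4 genes was called against vehicle, where 0.140% of all features were and 2172 had an unadjusted p under 0.05. Car3 differed by 1.70 ± 0.46 (interval 0.74 to 2.66, adjusted p = 0.15 in limma), with the lowest erlotinib 0.5 array, 12.58, below the highest vehicle array, 12.85. Car2 differed by -0.42 ± 0.32 (interval -1.08 to 0.25, adjusted p = 0.71), Car5a by 0.48 ± 0.24 (adjusted p = 0.47) and Car8 by -0.15 ± 0.20 (adjusted p = 0.87). Vehicle array 24 held the highest Car3 and the lowest Car2 level of its group. Without it, Car3 was called in erlotinib 0.5 against vehicle at 2.33 (adjusted p = 0.015 in limma). No other array left out gave a call, and among the settings only array weights did. Over all arrays left out Car3 ran from 1.10 to 2.33, with an adjusted p of up to 0.37 in limma. Over the settings its adjusted p ran from 0.014 to 0.66.

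Between the erlotinib doses none of the 4 genes was called, where 0.0776% of all features were and 1549 had an unadjusted p under 0.05. Car3 was 1.44 ± 0.46 higher in erlotinib 2 (interval 0.48 to 2.40, adjusted p = 0.30 in limma) and Car2 differed by -0.70 ± 0.32 (interval -1.36 to -0.04, adjusted p = 0.58), both with arrays that did not overlap. A fit of those groups alone called both genes, with adjusted p-values of 0.037 for Car3 and 0.034 for Car2 in limma. No other setting and no array left out called either gene. On leaving out arrays the adjusted p in limma ran from 0.18 to 0.78 for Car3 and from 0.68 to 0.9 for Car2. Against PBS at week 18, Car2 was 4.24 higher in erlotinib 0.5 and 3.54 higher in erlotinib 2. Of all features 15.5% were called in the first and 5.67% in the second of these comparisons, which share the PBS arrays.

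No member was called between the PBS times. Between week 18 and week 12 Car2 differed by -0.03 ± 0.32 (interval -0.69 to 0.63), Car3 by 0.04 ± 0.46, Car5a by 0.52 ± 0.24 (interval 0.02 to 1.02) and Car8 by -0.35 ± 0.20, with adjusted p-values of 0.60 to 0.99 in limma. In this comparison 0.00% of features were called by limma, 1568 had an unadjusted p under 0.05, and limma with a trended and robust spread called 6. Leaving out 1 array gave up to 12 called features, the 12 without the week 12 array whose Car2 level was 7.97. The sign of the Car2 value changed without PBS array 110, whose level of 9.56 was the highest in PBS, and became 0.48. Between DEN 50 vehicle at week 18 and DEN 50 at week 12, Car3 differed by -1.07 ± 0.46 (interval -2.03 to -0.11, adjusted p = 0.36 in limma) and Car2 by 0.33 (interval -0.33 to 0.99, adjusted p = 0.79), with 0.543% of features called. The vehicle injections belong to week 18 alone. The difference between weeks in the DEN 50 effect itself, the interaction, was -1.11 ± 0.65 for Car3 (interval -2.47 to 0.25, adjusted p = 0.51) and 0.36 ± 0.45 for Car2 (adjusted p = 0.80), with 0.233% of features called and none of the 4 genes among them. The interaction is built from the differences between DEN 50 and PBS that chose the genes. The comparison of DEN 50 over time uses the same DEN arrays, so neither p-value is independent of the choice.

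**Figure D3:**
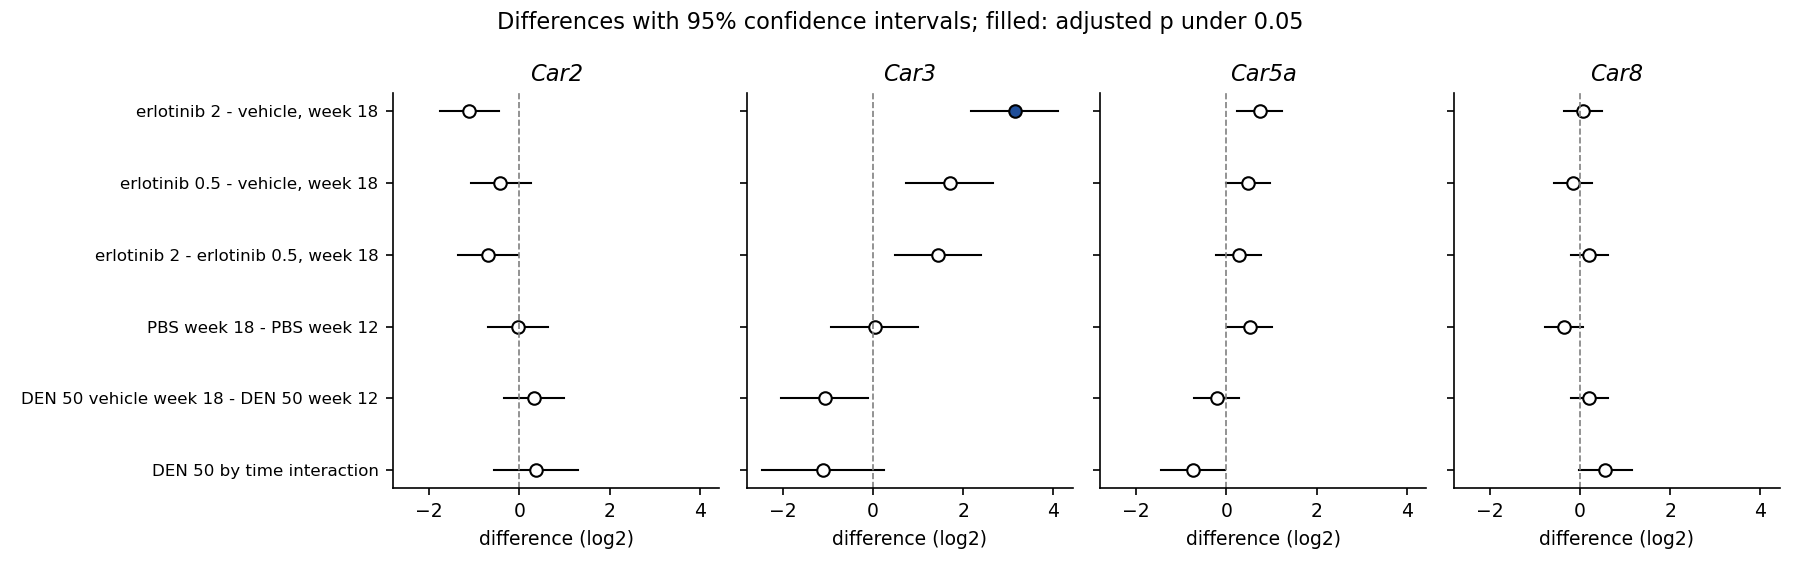
Log2 differences (horizontal axis) of Car2, Car3, Car5a and Car8 in 6 tested comparisons (vertical axis), with 95% confidence intervals as lines. The filled point, Car3 in erlotinib 2 against vehicle at 3.14, is the 1 called value, and open points were not called.

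The other carbonic anhydrases gave little signal. Of 11 further family genes 8 had a measured probe, and in each group 5 or 6 of the 8 were near background. Car1, the slower cytosolic enzyme of red blood cells and the next gene after Car3 on the chromosome, was called in every comparison of a DEN group with PBS and was lower each time. Car1 changed by -1.70 ± 0.22 in DEN 50 (adjusted p = 2e-05 in limma) and by -1.90 ± 0.22 in DEN 100 (adjusted p = 1e-06), from a PBS mean of 8.34 ± 0.14 (SD). At week 18 it changed by -1.20 ± 0.22 in vehicle, by -1.21 ± 0.22 in erlotinib 0.5 and by -0.92 ± 0.22 in erlotinib 2, of which the last had an adjusted p of 0.015 in limma and of up to 0.19 under other settings. The DEN means of Car1, 6.44 to 7.10, were close to background, so these falls may be larger than measured. Car7 was called in DEN 100 alone, at -0.39 ± 0.11 (adjusted p = 0.013 in limma), and missed the threshold under median scaling and bright-probe scaling (adjusted p up to 0.24). None of the 8 was called between erlotinib and vehicle or over time.

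Red blood cell, muscle and fat cell markers are of interest because each of these cell types holds Car2 or Car3. Of 10 measured erythroid genes, Car1 included, 2 fell and none rose in DEN 50 at week 12, 1 fell in DEN 100, and 1 rose and 1 fell in vehicle. In these comparisons with PBS 10.9%, 21.3% and 18.2% of all features were called, also for the muscle and fat cell counts below. Between 2 and 5 of the 10 erythroid genes were near background in each group. The gene that fell in DEN 100 and in vehicle was Car1 itself, already given above. The mean log2 level over the erythroid list on each array was 7.20 to 7.50 in PBS at week 12, 6.85 to 6.99 in DEN 50 and 7.12 to 7.47 in DEN 100. Hbb, the beta globin, ranged from 12.46 to 14.09 in PBS at week 12, from 10.86 to 11.96 in DEN 50 and from 12.88 to 14.54 in DEN 100. At week 18 it ranged from 13.17 to 13.35 in PBS and from 12.42 to 14.45 in vehicle. The part of red blood cells in the Car2 level was not tested. Of 8 measured skeletal muscle genes 5 to 7 were near background in every group, 2 rose in DEN 100 and none was called in DEN 50 or vehicle. The count in DEN 100 ran from 0 to 2 on leaving out arrays, and was 0 without PBS array 7. The actin Acta1 had a mean of 6.15 to 6.22 in PBS livers and reached 10.29 on 1 DEN 100 array. Its difference in DEN 100 ran from 0.51, without that array, to 2.39, with an adjusted p of up to 0.075 in limma. Adipoq, the adipocyte hormone, had group means of 6.24 to 6.60, close to the background level of 6.38. At week 12 its mean was 6.30 in PBS, 6.41 in DEN 50 and 6.33 in DEN 100. At week 18 it was 6.60 in PBS and 6.37 in vehicle. Of 7 fat cell genes 2 rose in DEN 50 at week 12, 3 rose and 1 fell in DEN 100, and 4 rose and 1 fell in vehicle, led by the fatty acid carrier Fabp4, which rose by 3.36 ± 0.34, 4.06 ± 0.34 and 4.54 ± 0.34. Between erlotinib 2 and vehicle Fabp4 fell by 1.49 ± 0.34. This call was lost under median scaling and without vehicle array 24 or erlotinib 2 array 29 (adjusted p up to 0.11 in limma on leaving out arrays). No red blood cell or muscle gene was called in this comparison, where 4.03% of all features were. The part of muscle and fat cells in the Car3 level was not tested.

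Of 10 measured bile duct and progenitor markers 6 rose and 2 fell in DEN 50 at week 12, with a median of 1.07 where the median of all features was -0.02, and 8 rose and 2 fell in DEN 100, with a median of 1.86. In vehicle against PBS at week 18, 6 rose and 1 fell, with a median of 1.48. Among all features 10.9%, 21.3% and 18.2% were called in these comparisons. Near background were 4 of the 10 markers in PBS at week 12 and 5 in PBS at week 18. Krt19, the biliary keratin, was at 6.65 to 7.01 in PBS at week 12, 8.67 to 9.62 in DEN 50 and 9.61 to 11.68 in DEN 100. The surface sialoglycoprotein Cd24 rose by 2.75 ± 0.32, 4.36 ± 0.32 and 3.66 ± 0.32 in these comparisons and the adhesion molecule Epcam by 2.53 ± 0.32, 3.17 ± 0.32 and 2.36 ± 0.32. Onecut1, a transcription factor that hepatocytes also express, fell by 1.80 ± 0.40 in DEN 50. In erlotinib 2 against vehicle, where 4.03% of all features were called, 4 of the 10 fell and 6 were not called, with a median of -0.74. On leaving out arrays the count ran from 0, without vehicle array 69 or erlotinib 2 array 31, to 5. The secreted phosphoprotein Spp1 was at -1.62 ± 0.41, Cd24 at -1.50 ± 0.32, Epcam at -1.32 ± 0.32 and Prom1 at -0.97 ± 0.25, and none of these calls remained under median scaling. Krt19 was not called in this comparison, with overlapping arrays at 8.60 to 10.23 in vehicle and 7.86 to 8.81 in erlotinib 2. The part of bile duct cells in the Car2 level was not tested.

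Male rat liver expresses a set of male-biased genes under pulses of growth hormone, and Car3 is itself known as such a gene in the rat. Of 11 measured genes of this set 7 fell in DEN 50 at week 12 and all 11 fell in DEN 100 and in vehicle. None rose, and the medians were -2.06, -6.13 and -3.84. Among all features 10.9%, 21.3% and 18.2% were called in these comparisons. The mean level over the list was 13.26 to 13.44 in PBS at week 12, 9.88 to 11.37 in DEN 50 and 7.20 to 7.50 in DEN 100. Cyp2c11, a steroid hydroxylase, fell by 4.14 ± 0.85 in DEN 50 and by 8.37 ± 0.85 in DEN 100, and the urinary protein gene Mup4 fell by 8.35 ± 0.88 in DEN 100. In erlotinib 2 against vehicle, where 4.03% of all features were called, 10 of 11 rose and none fell, with a median of 2.42. Among them were Mup4, higher by 4.69 ± 0.88 (adjusted p = 0.0035 in limma), Cyp2c11 by 4.50 ± 0.85 and Cyp3a2 by 3.72 ± 0.70. Under median scaling 9 were called. At the lower dose, where 0.140% of all features were called, 1 rose, Hsd3b5, by 1.25 ± 0.22. Between the doses, where 0.0776% of all features were called, 2 were higher in erlotinib 2, Obp3 by 2.50 ± 0.42 and Stac3 by 1.96 ± 0.37. These calls turned on single arrays and on settings. On leaving out arrays the count at the lower dose ran from 0, without vehicle array 69 or erlotinib 0.5 array 73 or 74, to 4, without vehicle array 24, and that between the doses from 0 to 2. The adjusted p in limma then ran up to 0.16 for Hsd3b5, 0.22 for Obp3 and 0.23 for Stac3, and over the settings up to 0.31, 0.17 and 0.24. These families have close paralogs, so that a probe may read more than 1 gene.

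Of 9 measured hepatocyte markers 1 fell in DEN 50 at week 12, 3 fell and 1 rose in DEN 100, and 2 fell in vehicle. The shares of all features called in these comparisons were 10.9%, 21.3% and 18.2%, so the counts in DEN 50 and vehicle were near the general share. Alb was at 14.98 to 15.12 in PBS at week 12 and at 14.11 to 15.10 in DEN 100, near the top of the scale. Ttr, the thyroid hormone carrier, changed by -0.83 ± 0.19, -1.87 ± 0.19 and -1.47 ± 0.19 in the 3 comparisons with PBS. Compared with vehicle, Ttr rose in erlotinib 2 by 0.79 ± 0.19, a call lost under median scaling and without vehicle array 69 or erlotinib 2 array 29. No other gene of this list was called there, where 4.03% of all features were. Hnf4a, the gene of the factor whose motif was searched above, changed by -0.34 ± 0.16 in DEN 50 (adjusted p = 0.23 in limma), by -0.72 ± 0.16 in DEN 100 (adjusted p = 0.0022) and by -0.69 ± 0.16 in vehicle (adjusted p = 0.0039). The calls in DEN 100 and vehicle were lost under some settings, with adjusted p-values of up to 0.084 and 0.062.

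**Figure D4:**
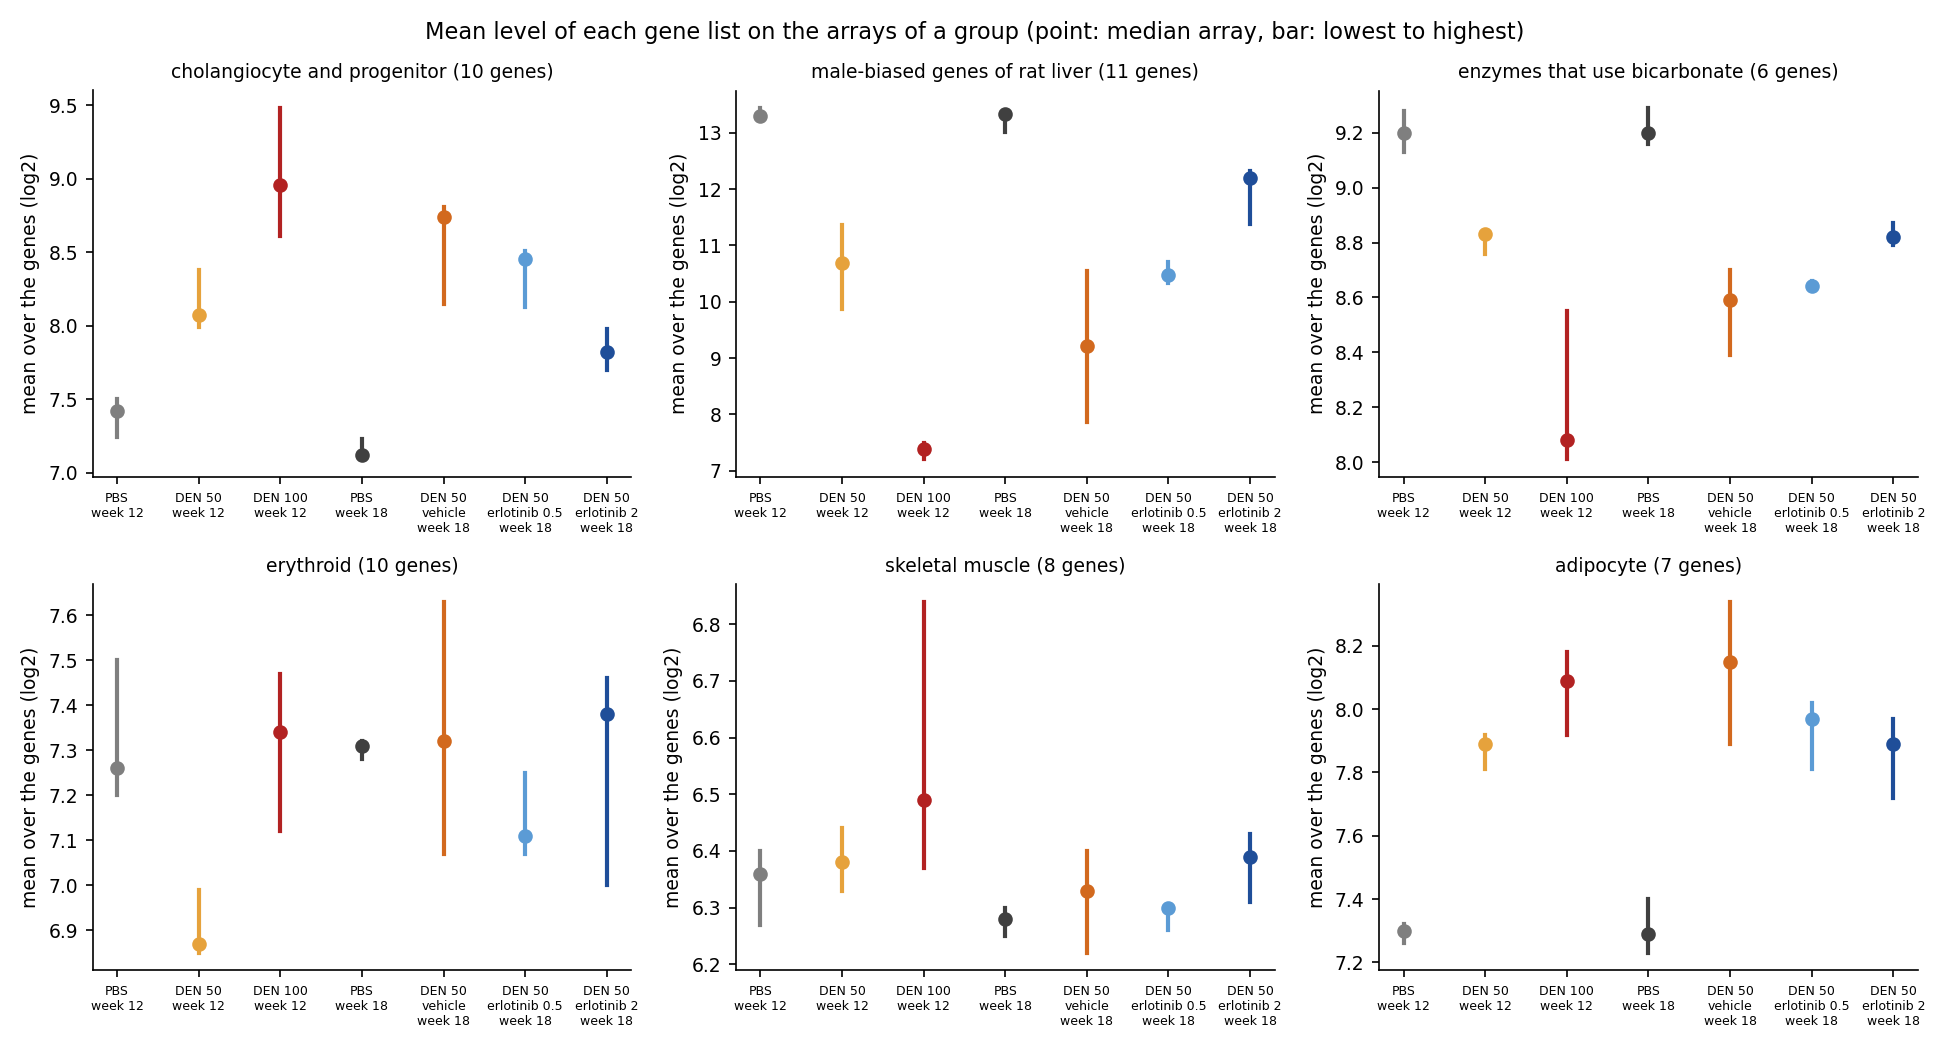
Mean normalized level on the log2 scale over the measured genes of 6 lists (vertical axes, which differ in range), by group. Points are the median array and bars run from the lowest to the highest of 3 arrays. The cholangiocyte and progenitor list is at 7.24 to 7.50 in PBS at week 12 and 8.61 to 9.48 in DEN 100, and the male-biased list at 13.26 to 13.44 and 7.20 to 7.50.

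Car5a supplies bicarbonate to mitochondrial enzymes. Of 6 measured carboxylases and related enzymes that use bicarbonate 2 fell in DEN 50 at week 12, 4 in DEN 100 and 4 in vehicle, and none rose. Their medians were -0.44, -1.07 and -0.73. In every group 2 of the 6 were near background, where a fall could hardly show. Of all features 10.9%, 21.3% and 18.2% were called in these comparisons. Pyruvate carboxylase, Pc, fell by 2.04 ± 0.19 in DEN 100 (adjusted p = 4e-08 in limma) and by 1.28 ± 0.19 in vehicle. The urea cycle enzyme Cps1, which uses bicarbonate in mitochondria, changed by -0.86 ± 0.24 in DEN 50, -1.52 ± 0.24 in DEN 100 and -0.72 ± 0.24 in vehicle. The propionyl-CoA carboxylase subunit Pccb changed by -0.59 ± 0.12, -1.02 ± 0.12 and -0.97 ± 0.12. The methylcrotonyl-CoA carboxylase subunit Mccc1 fell by 1.13 ± 0.22 in DEN 100. With erlotinib 2, compared with vehicle, Pc rose by 0.92 ± 0.19 and Pccb by 0.44 ± 0.12. The Pccb call was lost whichever of the 6 compared arrays was left out (adjusted p of 0.053 to 0.17 in limma), and the Pc call without erlotinib 2 array 29, which left 0. Under median scaling the numbers called were 0 in DEN 50, 3 in DEN 100, 2 in vehicle and 0 in erlotinib 2 against vehicle.

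Transporters of bicarbonate, protons and lactate were mixed. Of 17 measured genes 2 rose and 1 fell in DEN 50 at week 12, and 1 rose and 2 fell both in DEN 100 and in vehicle, with medians of -0.17, -0.10 and -0.08. In each group 8 to 10 of the 17 were near background, which limits the counts and medians. Of all features 10.9%, 21.3% and 18.2% were called in these comparisons. The lactate exporter Slc16a3 rose by 1.29 ± 0.33, 1.57 ± 0.33 and 2.25 ± 0.33 in the 3 comparisons. The sulfate and anion exchanger Slc26a1 fell by 2.46 ± 0.31 in DEN 100 and by 2.15 ± 0.31 in vehicle, and the scaffold Nherf1 changed by -1.54 ± 0.23 and -1.06 ± 0.23. In DEN 50 at week 12 the sodium bicarbonate cotransporter Slc4a4 rose by 1.06 ± 0.28 and the lactate transporter Slc16a1 fell by 1.10 ± 0.27. In erlotinib 2 against vehicle Slc26a1 rose by 1.32 ± 0.31 and Slc16a3 fell by 1.26 ± 0.33, and neither was called under median scaling. On leaving out arrays 0 to 2 of them were called, with none called without vehicle array 24 or 69 or erlotinib 2 array 29 or 31. At the lower dose no gene of this list or of the bicarbonate-using enzymes was called.

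The genes whose levels ran most like Car2 over 21 arrays were Nqo1, Lgals3, Rcn1, Rplp0 and Akr1b8. Pearson's r was 0.99 for Nqo1, the quinone reductase, and 0.98 for each of the others. These values are a description over arrays that share their normalization and their groups. With the group means taken off, r was 0.79 for Nqo1 and 0.56 to 0.58 for the other 4. Over the 9 arrays of DEN 50 livers at week 18 alone r ran from 0.74 for Akr1b8, an aldose reductase relative, to 0.93 for Rcn1, a calcium-binding protein of the endoplasmic reticulum. Nqo1 had means of 8.95 in PBS, 12.81 in DEN 50 and 13.23 in DEN 100 at week 12. The named genes that ran most against Car2 were Aox3, an aldehyde oxidase, Egf, the epidermal growth factor, and Or4f7b, each at -0.97. With the group means taken off, r was -0.06 for Aox3, -0.55 for Egf and -0.48 for Or4f7b. Aox3 and Or4f7b were near background in DEN 50 at week 12, DEN 100 and vehicle, with means of 6.04 to 6.27. Egf had means of 9.15 in PBS, 7.28 in vehicle and 8.01 in erlotinib 2 at week 18.

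The genes most like Car3 were Cyp2c13, Amy1, Dio1, Slco1b2 and Baat, with r from 0.96 to 0.98. Cyp2c13, a cytochrome P450 of the male-biased list, had the highest value, 0.98, and 0.83 with the group means taken off. Amy1 is an amylase, Dio1 a thyroid hormone deiodinase, Slco1b2 a bile acid and drug uptake carrier and Baat the enzyme that conjugates bile acids to amino acids. Within groups their r ran from 0.46 for Baat to 0.76 for Slco1b2, and over the 9 DEN 50 arrays of week 18 the 5 genes had r from 0.89 to 0.94. Dio1 had means of 12.77 in PBS, 10.94 in vehicle and 12.79 in erlotinib 2 at week 18. Most against Car3 ran Ampd3, an AMP deaminase, at -0.96, and Pmm1, a phosphomannomutase, and Ttc22, both at -0.95. Within groups r was -0.59 for Ampd3, -0.27 for Pmm1 and -0.53 for Ttc22. Ttc22 was near background in PBS, with means of 6.19 at week 12 and 6.13 at week 18. Ampd3 had means of 6.49 in PBS and 9.76 in DEN 100 at week 12.

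**Figure D5:**
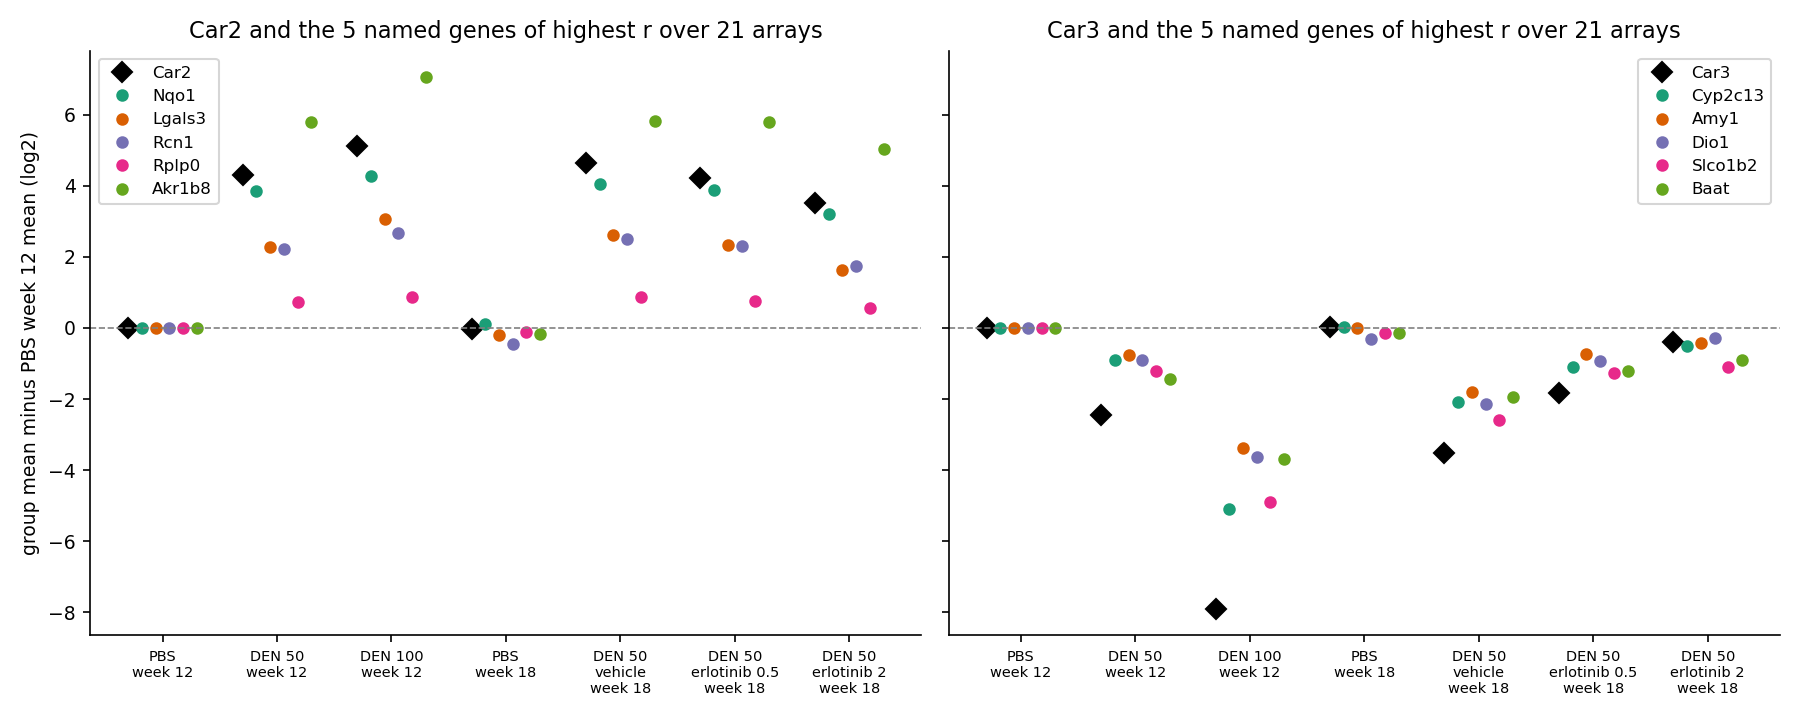
Group means minus the PBS mean of week 12 (vertical axis, log2) for Car2 (left) and Car3 (right) as diamonds and, as points, for the 5 named genes of highest r with each, by group (horizontal axis). Car2 differs by 4.30 in DEN 50 and 5.11 in DEN 100 at week 12, and Car3 by -2.46 and -7.90, with the 5 genes on the same side of 0.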

How the data were processed

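The authors deposited a raw table and a normalized table of linear intensity values from 21 bead arrays with 22523 probes. Per the labels, RNA was extracted with TRIzol. The scanner software and the authors' normalization method are not given in the sources used here. Deposited array medians were 135.5 to 136.8 in the normalized table and 105 to 186.9 in the raw table. The deposited raw intensities were corrected for background by normexp with an offset of 50 (limma 3.58.1 under R 4.3.3), turned into log2 values and brought to common quantiles. A probe entered the fit if 3 or more arrays placed it over their 40th percentile, and each gene was represented by its brightest probe. This left 19339 features, 12112 of them named. Of 22523 probes 13793 had a symbol, 8730 had none, and 13752 matched a RefSeq gene of GRCr8 by Entrez identifier. The number of arrays limits the precision, and signal over background limits dim probes.

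Group means were fitted with limma over 7 groups of 3 arrays, with 14 residual degrees of freedom, and fits were tested on simulated data. Comparisons were the erlotinib doses against vehicle, each other and PBS, each DEN dose against PBS and each other, and both times. The members, the 9 gene lists and the tests were chosen with earlier results of these data known. The text names every member, other carbonic anhydrases that were called, up to 4 called genes of largest change per list and comparison, defining markers, and the 5 most like and 3 least like genes. Promoter windows came from RefSeq. Protein sequences and a slide or chip effect were not analysed here. Alternatives were the deposited table, no background correction, median scaling, scaling on bright probes (those above the 60th percentile on every array), no filter on dim probes, a stricter one (60th percentile, 6 arrays), weights per array, a spread that was trended and robust, fitting only the arrays compared, the mean of a gene's probes, and leaving out each array. Figures were drawn with Python 3.11.15 and matplotlib 3.10.9.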

Additional observations from a re-analysis of the deposited data

How the results depend on the processing

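Of 792 values of the members over all settings and left-out arrays, 761 kept their direction and side of the threshold, or moved by less than the spread. Of 2208 such values of the other named genes, 336 kept their direction and were no longer called. The cause of the following changes was not tested. In erlotinib 2 against vehicle 2 members were called in place of 1 with the stricter filter, with array weights and in a fit of the compared arrays alone, as Car2 passed at -1.11 (adjusted p = 0.040), -1.28 (0.006) and -1.11 (0.031) in limma. The adjusted p of Car2 was up to 0.54 over the settings and 0.19 on leaving out arrays. Leaving out arrays gave 1 to 2 members, Car2 from -1.41 to -0.91 and Car3 from 2.54 to 3.77. In erlotinib 0.5 against vehicle array weights called 1 member, Car3 at 2.09 (adjusted p = 0.014), and leaving out arrays gave 0 to 1, with Car3 from 1.10 to 2.33. Between the doses the fit of the compared arrays alone called 2, Car2 at -0.70 and Car3 at 1.44. With the deposited table Car3 was at -7.27 in DEN 100 against PBS and at -0.02 between the PBS times, and Car2 at 3.28 in erlotinib 2 against PBS. With median scaling Car2 was at 3.94 there, at 4.60 in erlotinib 0.5 against PBS and at 0.47 between the DEN doses, and Car8 at 0.06 in DEN 50 against PBS and -0.00 between vehicle and DEN 50 of week 12. With bright-probe scaling Car3 was at -2.39 and Car8 at -0.12 in erlotinib 0.5 against PBS. Small values changed sign between the PBS times, where leaving out arrays gave Car2 from -0.31 to 0.48, among them 0.11 without array 9 of week 18, and Car3 from -0.01 to 0.11, among them -0.00 without array 18. The Car2 interaction ran from -0.15 to 0.66, and Car5a between vehicle and DEN 50 of week 12 ran from -0.41 to 0.01, the latter without vehicle array 24.

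Counts of features called moved more. Over the settings they ran from 125 to 1144 against 780 for erlotinib 2 against vehicle, 0 to 139 against 27 for the lower dose, 1 to 273 against 15 between the doses, 6 to 204 against 105 for DEN 50 over time and 3 to 98 against 45 for the interaction. They ran from 1312 to 2547 against 2108 for DEN 50, 2317 to 4191 against 4114 for DEN 100 and 1944 to 3837 against 3528 for vehicle, each against PBS, 676 to 1974 against 1814 between the DEN doses, 327 to 1659 against 1097 for erlotinib 2 against PBS and 1685 to 3564 against 2994 for erlotinib 0.5 against PBS. Scaling on bright probes shifted the median over all features by -0.50 in DEN 50, -0.21 in DEN 100 and -0.37 in vehicle against PBS. The share of higher calls in DEN 50 against PBS was 52.9%, 89.7% with median scaling and 35.0% with bright-probe scaling. No paired analysis was possible because the groups share no replicate numbers. The slide or chip as a block was not run, since no file used here gives it.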
